A study of Homo sapiens with 2 samples.

Results

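The enzymes that build haem and the inducible enzyme that opens it were measured as 9 genes, ALAS1, ALAS2, ALAD, UROS, UROD, CPOX, PPOX, FECH and HMOX1, of 18417 genes in all. They were chosen by name from the platform annotation, not by their values. All 9 were found, each with 1 probe set. The cells were K562, a human chronic myeloid leukaemia line with the BCR-ABL fusion that makes embryonic globins and is widely used as an erythroid model. They contained an inducible short hairpin RNA against BMI1 (shBMI1), a subunit of Polycomb repressive complex 1. One culture, labelled P4-K562+shBMI1+doxycycline, was incubated with doxycycline for 96 h, and the other, P3-K562+shBMI1, with none as control. Both therefore carried the hairpin construct, and how long the control was cultured, or whether the line was a clone, is not stated in the labels. Each group was 1 culture on 1 array (n = 1), so no replicate error, standard deviation or p-value can be given, and the number of arrays limits the precision of every value. No culture received doxycycline without the hairpin, so an effect of doxycycline, silencing of BMI1 and any other difference between the 2 cultures cannot be told apart.

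Haem is made by a chain of enzymes that starts in the mitochondrion, passes through the cytosol and returns to the mitochondrion. The first step joins glycine and succinyl-CoA and is catalysed by ALAS1 in most tissues and by ALAS2 in erythroid cells, and the last step, by FECH, inserts iron into protoporphyrin. In red cell precursors, transcription factors such as GATA1 and KLF1 drive ALAS2 and several later enzymes, while haem itself represses ALAS1 and induces HMOX1, which cleaves haem to biliverdin, iron and carbon monoxide. The step that condenses porphobilinogen into a linear tetrapyrrole was not analysed here.

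The values were log2 RMA values, on which a difference of 1 is a 2-fold change. All differences are doxycycline minus no doxycycline. The targeted gene was lower with doxycycline: the probe set annotated to BMI1 and its read-through measured 10.84 in the control and 10.00 under doxycycline. Genes were compared where the higher of their 2 values was at least 6, which 13471 of 18417 genes and all 9 haem enzymes passed. Of the erythroid markers, 12 of 15 were measured and all 12 passed, with a median of 9.43 with doxycycline and 9.66 without. HBB passed only by its control value of 6.42, against 5.95 with doxycycline. Markers of T and NK cells passed in 2 of 7 measured genes and had medians of 5.76 with doxycycline and 5.81 without. Hepatocyte markers passed in 2 of 5 measured genes and megakaryocyte markers in 4 of 8. Fibroblast and granulocyte markers passed in 4 of 6 each, B cell markers in 3 of 4 and monocyte and macrophage markers in 6 of 8. Passing the floor was thus not particular to the erythroid markers. These are bulk samples, in which fewer cells of a type and less RNA per cell cannot be told apart.

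The haem enzymes did not move as a block. With doxycycline, 6 of 9 were higher and 3 lower, and the largest difference in either direction was the 1.19-fold higher HMOX1. The enzymes of the first steps, ALAS1, ALAS2 and ALAD, were higher, and UROD, CPOX and FECH, which act later, were lower. PPOX and UROS did not follow this split, since PPOX, the last step but one, was higher and UROS differed by 0.03. At a size of 1.1-fold, 3 members (ALAS2, ALAD and HMOX1) were higher, where 19.4% of all genes compared were, and 1 (CPOX) was lower, where 17.1% of all genes were. ALAS1, with a difference of 0.133, and UROD, with -0.136, fell just short of that size, which is 0.138 on the log2 scale. At 1.2-fold, 0 members were higher and 0 lower, against 6.04% and 4.05% of all genes, and at 1.5-fold again 0 and 0, against 0.364% and 0.111%. With each column centred on its median, ALAS1 also reached 1.1-fold higher, which made 4 members, CPOX no longer reached 1.1-fold lower, and HMOX1 reached 1.2-fold, as it did with quantile normalization. These counts do not set the haem enzymes apart from all genes. The median difference was 0.11 over the 9 members and 0.0018 over all genes compared, of which 50.3% were higher. With a floor of 8, which kept 6 members, their median was -0.03.

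**Figure D1:**
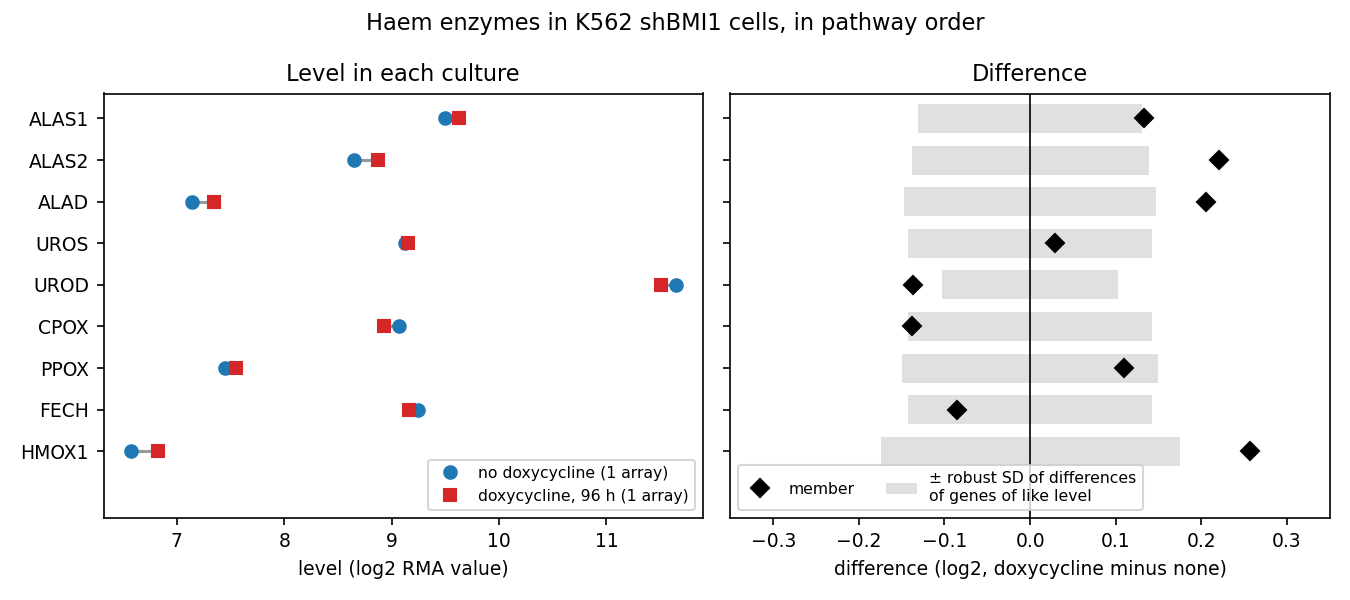
Left, the log2 RMA value of each haem enzyme in the culture without doxycycline (circles) and with doxycycline for 96 h (squares), 1 array each, in pathway order from top to bottom. Levels of different genes come from different probes and are not comparable. Right, the difference of the 2 values (diamonds) over a grey bar of plus and minus 1 robust SD of the differences of genes of like level, which is a spread between genes and not an error of the member. ALAS2, ALAD and HMOX1 lie beyond their bar on the higher side and UROD on the lower side, ALAS1 lies at the edge of its bar, and the other 4 lie within theirs.

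The first step of the pathway has a housekeeping and an erythroid enzyme, and both were higher with doxycycline. ALAS1, the enzyme of most tissues, measured 9.50 in the control and 9.63 under doxycycline, a difference of 0.13. ALAS2, the erythroid enzyme, measured 8.65 in the control and 8.87 under doxycycline, a difference of 0.22 or 1.16-fold. The ALAS2 difference ranked at percentile 90.9 of all genes compared and that of ALAS1 at percentile 79.8. The spread of genes of like level sets these sizes in proportion: differences at least as large, in either direction, were found in 12.3% of the 674 genes in the same level bin as ALAS2 and in 30.2% of the 673 genes in that of ALAS1. Of the 9 members, ALAS2 was the one with the smallest such share. ALAD, which joins the product of this step into porphobilinogen in the cytosol, measured 7.15 in the control and 7.35 under doxycycline. Its difference of 0.20, or 1.15-fold, was matched or exceeded by 21.1% of genes of like level. All 3 upstream enzymes were therefore higher, by amounts that 12.3% to 30.2% of genes of like level also reached.

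In the middle of the pathway, UROS differed little, and UROD and CPOX were lower. UROS, which closes the linear tetrapyrrole into uroporphyrinogen III, measured 9.12 in the control and 9.15 under doxycycline, a difference of 0.03 that 83.7% of genes of like level matched or exceeded. UROD, which removes carboxyl groups from that ring, measured 11.65 in the control and 11.51 under doxycycline. Its difference of -0.14 is small on this scale, but bright genes varied less, with a robust SD of 0.10, and 20.6% of genes of like level differed as much. CPOX, the mitochondrial enzyme that oxidises coproporphyrinogen, measured 9.07 in the control and 8.93 under doxycycline. Its difference of -0.14, at percentile 17.0 of all genes, was matched or exceeded by 32.8% of genes of like level. These 2 enzymes act one after the other and differed by almost the same amount, both lower.

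The last 2 steps, which make protoporphyrin and load it with iron, went in opposite directions. PPOX, which oxidises protoporphyrinogen, measured 7.45 in the control and 7.55 under doxycycline, a difference of 0.11. FECH, which carries an iron-sulphur cluster and inserts the iron, measured 9.24 in the control and 9.16 under doxycycline, a difference of -0.09. Differences of these sizes were common, reached by 46.4% of the genes of like level for PPOX and by 54.4% for FECH. The place of the enzyme in the cell did not sort the directions: 3 of 5 mitochondrial enzymes and 2 of 3 cytosolic ones were higher. From the lowest difference, that of CPOX, to the highest, that of ALAS2, the 8 synthesis genes spanned 0.36 on the log2 scale.

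**Figure D2:**
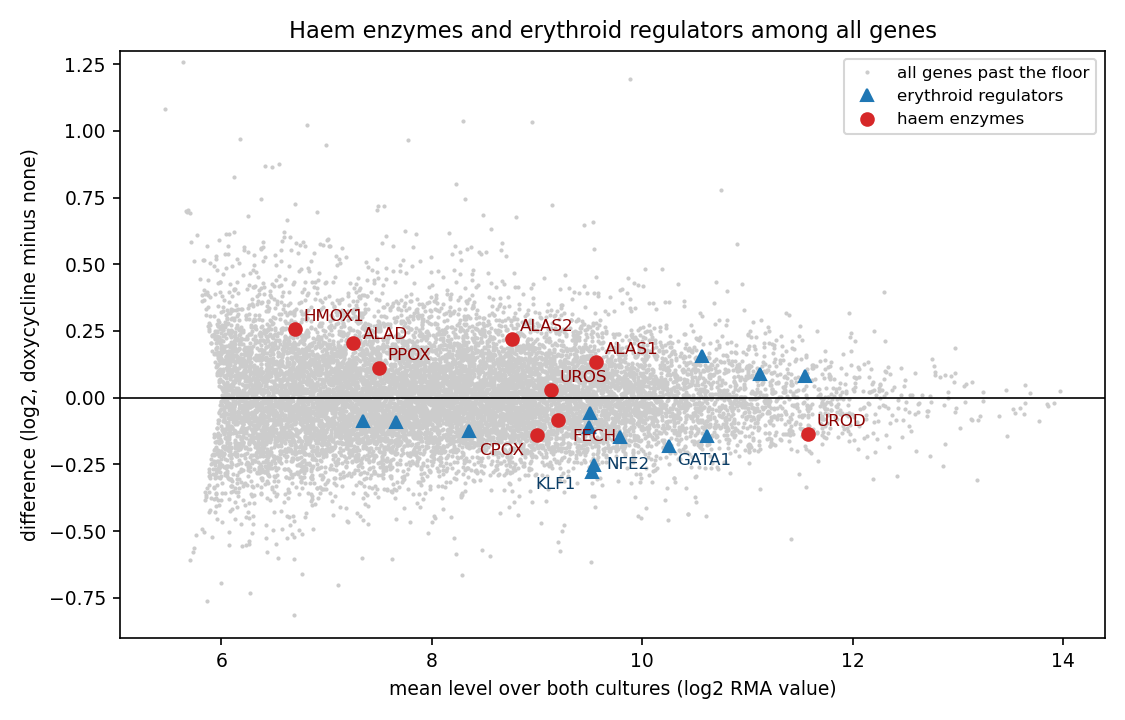
Difference between the cultures (log2, doxycycline minus none) against the mean level over both (log2 RMA value) for the 13471 genes compared (grey), the 9 haem enzymes (red circles) and the 13 erythroid regulators (blue triangles). The haem enzymes lie on both sides of 0 within the cloud of all genes, whereas KLF1, NFE2 and GATA1 and most other regulators lie below 0.

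HMOX1, which begins haem breakdown and is induced by haem and by oxidative stress, had the largest difference of the 9. It measured 6.57 in the control and 6.83 under doxycycline, a difference of 0.26 or 1.19-fold, at percentile 93.6 of all genes. It was also the member closest to the floor of 6, where the spread between genes was wider, with a robust SD of 0.17 and 16.8% of like genes differing as much. The constitutive oxygenase HMOX2 differed the other way, at 9.26 in the control and 9.11 under doxycycline. BLVRA, the reductase that turns the biliverdin made by HMOX1 into bilirubin, went from 8.68 in the control to 8.80 with doxycycline. BLVRB, also named as a biliverdin reductase, went from 9.24 to 9.30, so that both were slightly higher with doxycycline. Macrophages are rich in HMOX1. Of 8 monocyte and macrophage markers, 6 were higher and 6 passed the floor. Of those past the floor 4 were higher, where 50.3% of all genes compared were. The summed linear signal of the 8 was 2263 with doxycycline and 2188 without. Leaving out CD68, the brightest, it was 901 and 791. LYZ, the lysozyme gene, differed by 0.28, more than HMOX1 did. CSF1R differed by 0.20, MARCO by 0.14, FCGR3A by 0.12, CD14 by 0.01, CD68 by -0.04 and ITGAM by -0.05. CD163 differed by less than 0.01. This defining marker and FCGR3A were under 6 in both cultures. Both cultures were of the K562 line, so these are values of marker genes in that line. Any relation of these markers to the HMOX1 value was not tested.

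Genes known to regulate HMOX1 or to share its inducers mostly stood near 0. Of 16 measured, 8 were higher and 8 lower, with ATF4 counted as higher by its brighter probe set. The median difference of the 16 was 0.0022. Of all genes compared, 50.3% were higher and 48.8% lower. BACH1, the haem-sensing repressor of HMOX1, differed by 0.01 and NFE2L2, its main activator, by 0.02. These 2 genes and the NFE2L2 targets NQO1 (0.11), GCLM (-0.03), TXNRD1 (-0.04) and SRXN1 (-0.10) are mentioned here with their values already known. SLC7A11, a cystine and glutamate exchanger that answers to both NFE2L2 and ATF4, was the exception, at 8.43 in the control and 9.47 under doxycycline. ATF4, a factor of the amino acid response, had probe sets that disagreed, with 0.23 at the brighter and -0.09 at the dimmer, which leaves no settled direction. HIF1A, the oxygen-sensing factor, differed by 0.13. Thus SLC7A11 was the single gene of this list past 1.2-fold in either direction. Of all genes compared, 6.04% were higher and 4.05% lower by that size.

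Erythroid regulators were lower in most cases, in the same culture in which ALAS2 was higher. Of 13 regulators 10 were lower, 5 of them by at least 1.1-fold, and the median difference was -0.11. Among all genes compared, 48.8% were lower and 17.1% lower by 1.1-fold. KLF1, an erythroid activator of globin and haem genes, measured 9.66 in the control and 9.38 under doxycycline. NFE2, a subunit of the NF-E2 complex, measured 9.67 in the control and 9.42 under doxycycline. GATA1, the central erythroid factor, measured 10.34 in the control and 10.16 under doxycycline, a difference of -0.18. The regulators that were higher were STAT5A (0.09), STAT5B (0.16) and EIF2AK1 (0.08), the last a kinase held inactive by haem, and they were named after their values were seen. The erythroid marker list, which shares GATA1, TAL1, KLF1, NFE2 and EPOR with the regulators, went the same way as KLF1 and GATA1, with 10 of 12 measured markers lower and a summed linear signal of 21608 with doxycycline against 25169 without. The embryonic globin gene HBE1, the brightest marker, made up much of this sum, which was 13240 against 14802 without it. Of 8 megakaryocyte markers 5 were higher, among them all 4 past the floor, where 50.3% of all genes compared were higher. Those 4 were FLI1 (0.57), GP9 (0.19), ITGA2B (0.13) and ITGB3 (0.05). Differences as large were found in 1.34% of genes of like level for FLI1, 25.9% for GP9, 31.4% for ITGA2B and 73.8% for ITGB3. The other megakaryocyte markers were under the floor, with GP1BA higher (0.24) and PF4 (-0.22), PPBP (-0.29) and VWF (-0.08) lower. The summed signal of the 8 was 1480 with doxycycline and 1355 without. Leaving out ITGA2B, the brightest, it was 620 and 569. Any relation of these markers to the erythroid values was not tested. ALAS2 was 1 of the 2 markers that were higher, the other being SLC4A1, the red cell anion exchanger (named after its value was seen), at 6.50 in the control and 6.70 under doxycycline. ALAS2 and GATA1 thus lay 0.40 apart in their differences, and whether this gap exceeds the spread between cultures could not be tested with 1 culture each.

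The 250 bases before the transcription start are shown for ALAS2 and CPOX, which differed in opposite directions while erythroid regulators were lower, and for ALAS1 as the housekeeping counterpart of ALAS2. They are from RefSeq on GRCh38.p14, 5′ to 3′ along the gene's strand, for ALAS2 at chrX:55030978-55031227, minus strand, for CPOX at chr3:98593612-98593861, minus strand, and for ALAS1 at chr3:52197833-52198082, plus strand. Capitals mark matches, on either strand, to GATA with A or T before it and A or G after it (the GATA factor motif), to CACCC (the core of the KLF1 motif) and to TGAGTCA (the core of the NF-E2 motif, shared with AP-1).
ALAS2: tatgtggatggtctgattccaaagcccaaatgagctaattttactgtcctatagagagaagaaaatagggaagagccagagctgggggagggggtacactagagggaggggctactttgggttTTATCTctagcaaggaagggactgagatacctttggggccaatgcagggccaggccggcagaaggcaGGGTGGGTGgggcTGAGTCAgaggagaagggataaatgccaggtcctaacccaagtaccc
CPOX: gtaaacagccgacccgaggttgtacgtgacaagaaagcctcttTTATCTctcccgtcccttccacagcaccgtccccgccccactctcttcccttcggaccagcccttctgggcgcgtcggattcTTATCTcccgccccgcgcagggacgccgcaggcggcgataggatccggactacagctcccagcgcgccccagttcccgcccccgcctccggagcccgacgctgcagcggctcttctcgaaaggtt
ALAS1: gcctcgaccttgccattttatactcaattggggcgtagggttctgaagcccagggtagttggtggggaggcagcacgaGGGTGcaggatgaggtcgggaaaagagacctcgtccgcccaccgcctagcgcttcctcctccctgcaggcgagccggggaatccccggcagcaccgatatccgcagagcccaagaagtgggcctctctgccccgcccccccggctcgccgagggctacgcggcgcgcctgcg

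ALAS2 held 1 GATA match, 2 CACCC matches that overlap by 1 base, and 1 NF-E2 core. CPOX held 2 GATA matches and none of the other motifs, and ALAS1 held 1 CACCC match only. Of the 9 members, 7 had promoters in the table, with 9 windows in all, and those of UROS and HMOX1 were not used here. GATA matches were found in 4 of these 9 windows, before ALAS2, ALAD and PPOX, which were higher with doxycycline, and CPOX, which was lower. CACCC matches were found in 5 of the 9, before ALAS1, ALAS2, ALAD and PPOX, and the NF-E2 core in 1, before ALAS2. The 2 ALAD windows overlap, so that 1 CACCC match is counted in both. Of 35116 windows of this length in the table, 22.3% held a GATA match, 54.7% a CACCC match and 4.20% an NF-E2 core. The CACCC count of the members is near that share, and no link of a motif to direction was tested. The matches describe these letters only.

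Supply of the substrates differed little. Of 12 genes for glycine and succinyl-CoA supply and for the mitochondrial proteases that act on ALAS1 and ALAS2, 8 were higher and 0 passed 1.1-fold in either direction, which 19.4% of all genes did on the higher and 17.1% on the lower side. SLC6A9, a plasma membrane glycine transporter, differed by 0.13, CLPX, the unfoldase that activates ALAS enzymes, by 0.11 and LONP1, a matrix protease, by -0.11. SLC25A38, which brings glycine into the mitochondrion for this pathway, differed by 0.10 and was named after its value was seen. Among iron genes, 6 of 13 were higher and 7 lower, with a median of -0.02, where 50.3% and 48.8% of all genes compared were. At 1.2-fold, 1 iron gene was higher and 1 lower, against 6.04% and 4.05% of all genes. FBXL5, the iron-sensing ubiquitin ligase subunit that removes an iron regulatory protein, measured 8.79 in the control and 9.07 under doxycycline, or 1.22-fold higher. STEAP3, the endosomal ferrireductase of the transferrin cycle, measured 8.12 in the control and 7.85 under doxycycline, or 1.21-fold lower. PCBP1, an iron chaperone, differed by -0.17. TFRC, the transferrin receptor gene, differed by -0.09 and FTL, the ferritin light chain gene, by less than 0.01, both named after their values were seen. The iron genes thus lay on both sides of 0, like the enzymes they serve.

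Iron-sulphur cluster assembly, on which FECH depends, split evenly, with 7 of 14 genes higher and 7 lower. Its differences were unequal in size: 0 genes were higher and 4 lower by at least 1.1-fold, where 19.4% and 17.1% of all genes were. HSCB, a co-chaperone of cluster transfer, measured 7.65 in the control and 7.44 under doxycycline, and FDX2, the ferredoxin of cluster synthesis, 8.54 and 8.35. GLRX5, a glutaredoxin needed for haem synthesis in red cells, had differences of -0.27 and -0.09 at its brighter and its dimmer probe set. It counts among the 4 by the brighter only, since the dimmer does not reach 1.1-fold. Haem and porphyrin carriers were balanced, with 6 of 12 higher and 6 lower. HPX, the plasma haem-binding protein gene, differed by 0.16 at a level near the floor, TSPO, an outer mitochondrial membrane protein, by -0.16, and FLVCR1, a haem exporter first described in erythroid cells, by 0.15. The genes that convert haem to haem a or attach it to cytochrome c lay within 0.07 of 0, with COX15 at 0.07, COX10 at -0.05 and HCCS at 0.03. Of 5 known regulators of ALAS1 past the floor, 4 were lower, 1 of them by at least 1.1-fold. Among all genes compared, 48.8% were lower and 17.1% lower by 1.1-fold. The 1 past that size was PPARGC1B, a coactivator of mitochondrial genes, at 8.44 in the control and 8.15 under doxycycline. FOXO1 differed by -0.08 and NR1D1, a haem-binding nuclear receptor, by 0.04. NRF1 (-0.04) and ESRRA (-0.03) lay near 0 and were named after their values were seen. ALAS1 itself was higher.

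**Figure D3:**
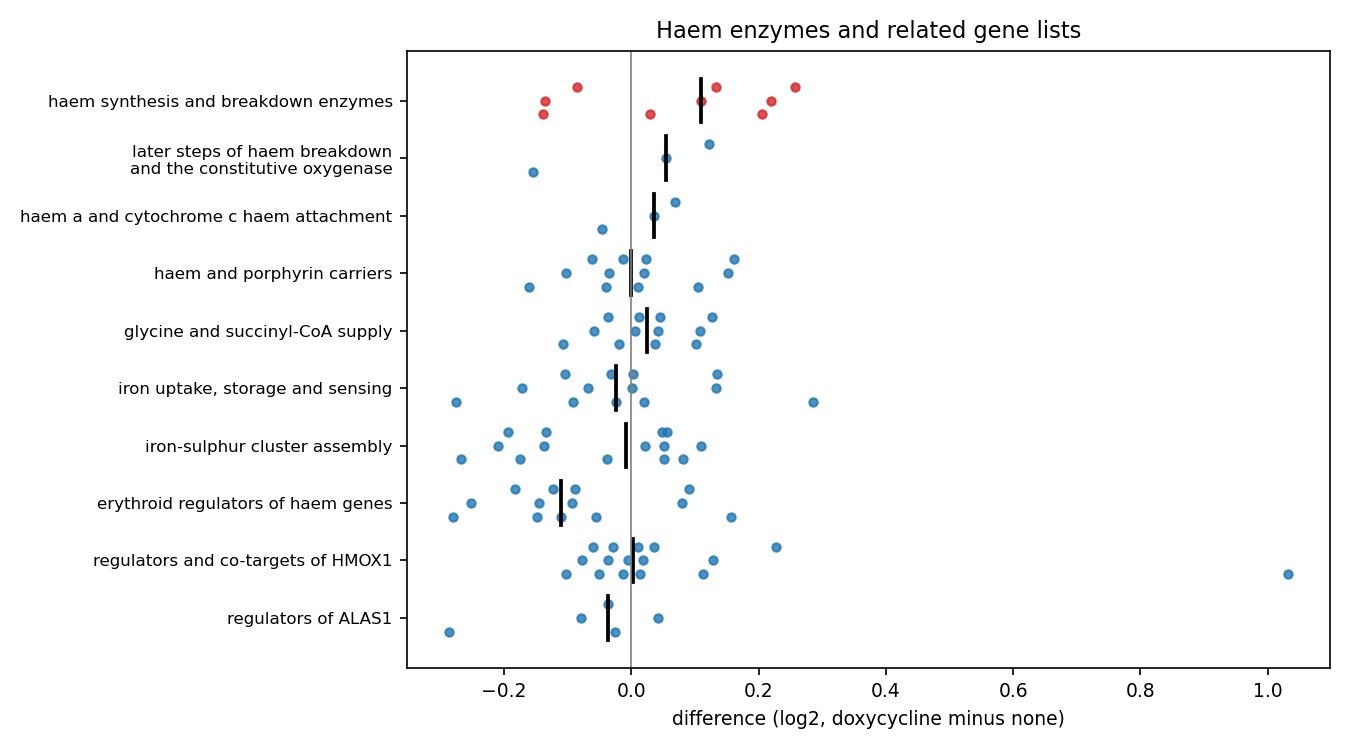
Difference between the cultures (log2, doxycycline minus none) of each gene past the floor, by list, with the haem enzymes in red, the related lists in blue and a black line at each list's median; vertical offsets within a list carry no value. The median of the haem enzymes is 0.11, that of the erythroid regulators -0.11, and the point at 1.03 is SLC7A11.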

How the data were processed

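Total RNA of 2 K562 cultures, 0.3 µg each with an integrity number of 10, was labelled by an Affymetrix whole-transcript protocol, per the labels. The submitters' processing notes name Affymetrix Expression Console 1.1.1 and the RMA method, and the authors deposited log2 values of 33297 probe sets. The base of the logarithm was taken from RMA and the range of values, 1.61 to 14.6. RMA shrinks differences of dim probe sets and removes a shift shared by all genes. The design text names another Affymetrix array than the one whose annotation fits these probe sets, and the latter was used.

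Of the probe sets, 19460 had 1 gene symbol, 1754 several and 12083 none here. Symbols were updated through Entrez IDs to RefSeq (19429 matched). A gene took its brightest probe set with 1 symbol, and genes whose higher value was under 6 were left out. Detection calls were not used. Where 1 gene had several probe sets (554 genes), their differences had a pooled SD of 0.13. The robust SD, 1.4826 times the median of absolute deviations, and the genes of like level come from 20 bins of mean level. The members, lists, motifs and fold sizes were chosen with earlier results of these data known. Beside the members and BMI1, each list's up to 3 largest absolute differences past the floor, and any of at least 1.2-fold, were named, 27 genes in all, and others are marked where they appear or are cell type markers. Only the count past 1.1-fold and the median were tested on simulated differences, drawn with the spread of each level bin and with fixed folds added. The alternatives were a gene's mean or median probe set value, centring, quantile normalization, removal of a loess trend (span 0.3) and other floors (none, 5, 7 and 8). Python 3.11.15, pandas 2.3.3 and statsmodels 0.14.6 were used.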

Additional observations from a re-analysis of the deposited data

How the results depend on the processing

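Each member still compared kept the sign of its difference under every alternative run. ALAS2 ranged from 0.21 to 0.23, ALAD from 0.20 to 0.21, HMOX1 from 0.26 to 0.27, CPOX from -0.15 to -0.13 and UROD from -0.14 to -0.10, the last with quantile normalization. Counts at fixed sizes moved, since several members lie next to them. With a floor of 8, which leaves out HMOX1, ALAD and PPOX, 3 members were higher, 1 of them by 1.1-fold, and the median of the remaining 6 was -0.03, opposite in sign to the 0.11 over all 9. With columns centred on their medians, 4 members, now with ALAS1, were higher and 0 lower by 1.1-fold. At 1.2-fold, 1 member, HMOX1, was higher with centring and 1 with quantile normalization. The median of the erythroid regulators ranged from -0.12 to -0.10. No paired analysis was possible because the labels give no replicate numbers and each group held 1 sample, so no sample could be left out either.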
